A study of Mus musculus with 36 samples.

Results

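The sarcomere and contraction genes described here are the 40 genes of a list of skeletal muscle contractile proteins, found in the gene table by Ensembl ID among 54347 genes in all. By role they are 6 myosin heavy chains, 5 myosin light chains, 2 sarcomeric actins, 9 troponins and tropomyosins, 6 giant, M-band and myosin-binding proteins, 6 proteins of the Z-disc and its intermediate filament, 5 proteins of excitation-contraction coupling and the muscle creatine kinase. By developmental and fibre class, 5 are embryonic or neonatal isoforms, 13 are mature fast isoforms, 8 are slow or slow and cardiac isoforms and 14 are shared between fibre types. The rule used gene identity and no measured value.

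In a striated muscle cell, thick filaments of myosin pull on thin filaments of actin, and the troponin complex on the thin filament opens the myosin sites when calcium is released from the sarcoplasmic reticulum. Most of these proteins exist as isoforms that are used at different stages and in different fibres. Newly formed myotubes use embryonic and neonatal isoforms, which are replaced in mature fibres by slow or fast ones.

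The series compared β-hydroxybutyrate (βOHB), the main ketone body that hepatocytes release in fasting, with butyrate, a short-chain fatty acid from gut bacteria that inhibits histone deacetylases and lacks the hydroxyl group on the β carbon of βOHB. Primary mouse adipocytes, bone marrow-derived macrophages, skeletal myotubes and hepatocytes were each exposed to βOHB or butyrate, both at 5 mM, or to PBS as control for 6 h, with 3 libraries in each of the 12 groups. All cells came from male wild-type mice, C57Bl/6 for the first 3 cell types and C57BL/6NHsd for the hepatocytes. Myotubes were grown from hindlimb myoblasts that had been separated from fibroblasts by brief plating on uncoated plastic, and were fused in low-serum differentiation medium, in which they were also treated, so these are cultured cells without nerve or load. Adipocytes were grown from the pooled inguinal fat of several animals. The labels do not say whether the 3 libraries of a group came from separate animals or cultures, so the p-values measure the spread between these libraries, which may be technical.

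Total estimated counts lay between 18366289 and 23221473 per library. The 8 myotube markers, among them *Myog*, *Mymk* and *Mb*, summed to between 7163 and 8153 CPM (counts set to one common library size, with TMM scaling) in the myotube controls and to at most 7.09 CPM in the control libraries of any other cell type, as the label implies. The myotube cultures also held fibroblast marker RNA, with a summed level of 1669 to 2046 CPM in the controls, and macrophage marker RNA, with 139 to 378 CPM. Some libraries stood apart. Hepatocyte markers were at 0 to 0.044 CPM in the myotube controls and at 31.6 to 559 CPM in the butyrate-treated myotubes, highest in replicate 2. They were at 0 to 24.1 CPM under βOHB, highest in replicate 3, against 37693 to 39467 CPM in hepatocyte controls. Butyrate replicate 3 of the macrophages carried more RNA of the muscle genes than the other macrophage libraries, and the main results that rest on it are given with and without it.

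In untreated myotubes the 40 genes took 7.22%, 8.28% and 7.98% of all counts in the 3 libraries. Levels per transcript length (RPKM, CPM per kilobase of the longest coding transcript) can be compared between genes. The highest was that of *Acta1*, the skeletal α-actin, at 5466 ± 607 RPKM (SD, n = 3). It was followed by the myosin light chains *Myl1* (4579 ± 513), *Mylpf* (4102 ± 466) and *Myl4* (3681 ± 243), and the SDs of these neighbours touched or overlapped. Among isoforms, the embryonic myosin heavy chain *Myh3* stood at 1530 ± 196 RPKM, above the fast chain *Myh1* (446 ± 38.2), the perinatal chain *Myh8* (311 ± 32.5), the slow chain *Myh7* (206 ± 27.4) and the fast chains *Myh2* (31.4 ± 6.37) and *Myh4* (26.4 ± 1.63). The last pair did not differ beyond their spread. The cardiac α-actin *Actc1*, used in embryonic skeletal muscle, was at 2215 ± 274 RPKM. At the other end, *Myl3*, the slow and ventricular essential light chain, was at 0.871, 0.925 and 0.176 CPM in the controls, at 0.276, 0.622 and 0.355 CPM under βOHB and at 0.529, 0.486 and 0.492 CPM under butyrate. It was the only member of the list that did not reach 1 CPM in 6 libraries, so 39 members were tested. The plot of the levels shows that the butyrate libraries lay to the left of the controls for most members.

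**Figure D1:**
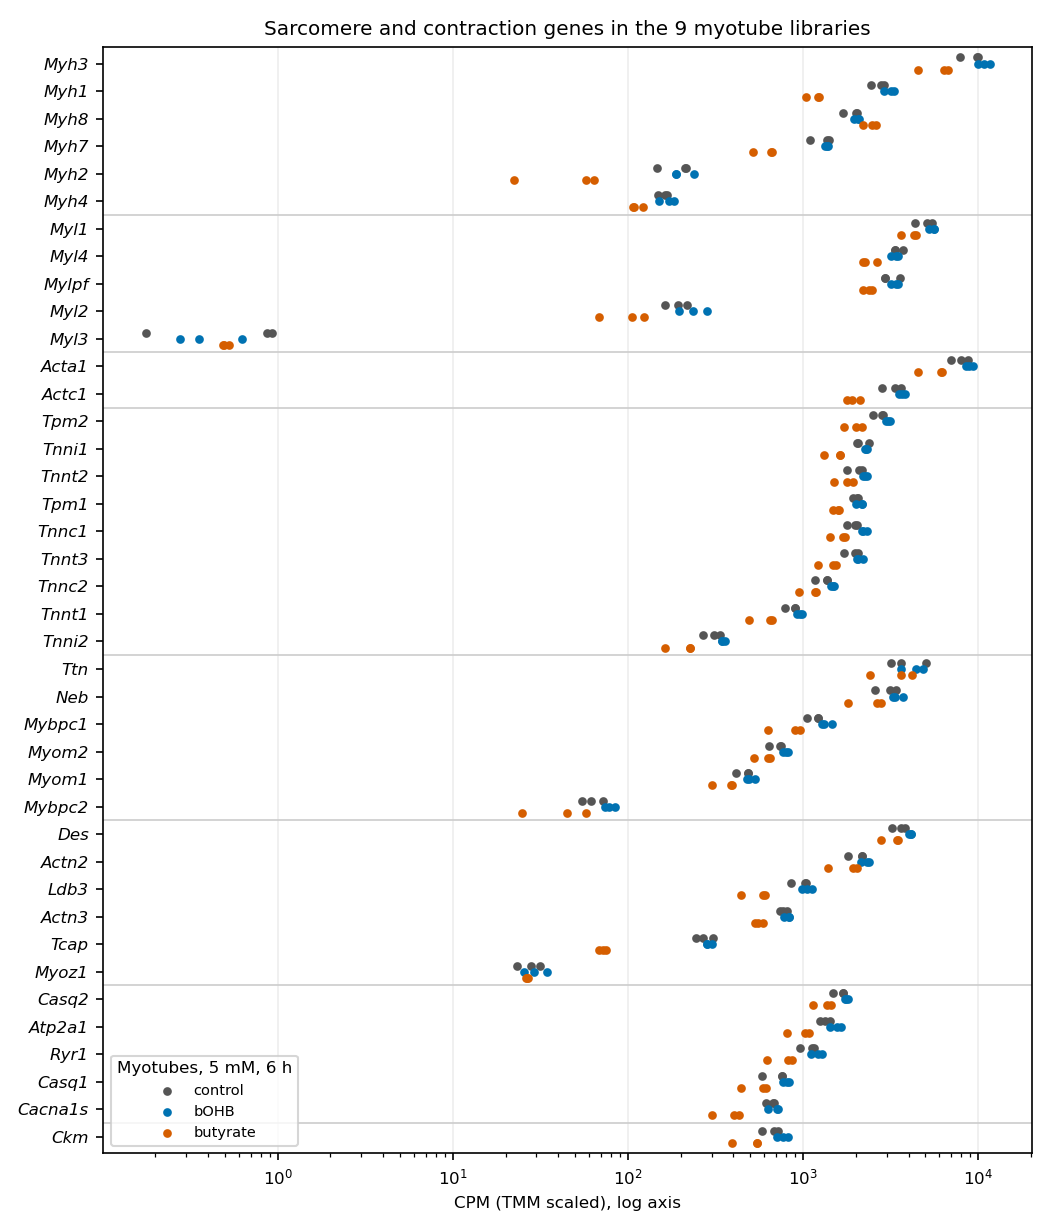
Level of each of the 40 genes in the 9 myotube libraries, in CPM on a log axis, grouped by role from the myosin heavy chains at the top to creatine kinase at the bottom; each point is 1 library and the colours mark control, βOHB and butyrate. The butyrate points of *Myh2* and *Tcap* lie well to the left of all control points, while those of *Myh8* lie to the right of them.

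Compared with control, none of the 39 members tested passed the test under βOHB. Over all 15340 genes tested, 2.91% were called in this comparison (0.346% raised and 2.56% lowered) by edgeR's quasi-likelihood test at a Benjamini-Hochberg false discovery rate (FDR) below 0.05, against 0 members. Limma-voom and DESeq2 also called 0 members, and 1 member, *Myl2*, had an unadjusted p below 0.05. *Myl2*, the regulatory light chain of slow and ventricular myosin, had 163, 217 and 193 CPM in the controls and 236, 283 and 195 CPM under βOHB, and the ranges overlapped (log2 fold change 0.32 ± 0.15 (SE), adjusted p = 0.343). *Tnni2*, the inhibitory troponin of fast fibres, came next with 268, 310 and 336 CPM in the controls and 359, 344 and 343 CPM under βOHB. Here every treated library was above every control, yet the difference of 0.19 ± 0.097 on the log2 scale did not pass the test (adjusted p = 0.376).

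The fitted differences under βOHB were small and mostly of 1 sign. They ran from -0.05 (*Myl4*) to 0.32 (*Mybpc2*) on the log2 scale, with 38 of 39 above 0 and a median of 0.15 against 0.02 over all genes tested. In 15 members all 3 βOHB libraries lay above all 3 controls and in 0 below, where the shares over all genes were 14.6% and 8.34%. A single library set part of this. Control replicate 1 held the lowest value of the 6 control and βOHB libraries in 38 of the 39 members, and without it the median was 0.08, with 35 members above 0 and 0 called. Without each of the other libraries in turn the median was 0.12 to 0.19. The members are not independent of each other. The 95% intervals of the 39 log2 fold changes lay within -0.55 to 0.88, with a median half-width of 0.36. They use the spread per gene over all 36 libraries, and most members were at low levels outside the myotubes. The spread between the myotube libraries alone may differ. Macrophage markers moved in the same libraries: all 8 were lowered by βOHB (median log2 fold change -1.81), with a summed level of 50.9 to 136 CPM. Of 5 proliferation markers 3 were lowered, from 35.8 to 77.6 CPM in the controls to 22.1 to 27.0 CPM. Of the 8 myotube markers, 0 were called, and their sum was 8481 to 8676 CPM. Of 7 fibroblast markers 1 was raised (summed level 1655 to 2172 CPM) and of 5 endothelial markers 1 was lowered (3.60 to 3.99 CPM, against 4.40 to 13.9 CPM in the controls), while 0 of the myoblast, the smooth muscle and the adipocyte markers were called. Of the 6 hepatocyte markers 1 was raised, and without βOHB replicate 3, which held nearly all of their RNA in this group, the median of the members was 0.15 with 0 called. The part of these changes in the sarcomere values was not tested.

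Butyrate lowered 25 of the 39 members and raised 0. Among all genes tested, 66.5% were called under butyrate in myotubes (33.1% raised and 33.4% lowered), so a called gene was common, while the members that were called all went down. The median log2 fold change of the members was -0.47 against 0 for all genes. All 3 butyrate libraries lay below all 3 controls in 27 members and above them in 1, *Myh8*, while the other 11 overlapped; over all genes the shares were 32.5% and 32.3%. DESeq2 called 13 of the 39 members and 10056 of all 15340 genes. The threshold of P below 0.001 gave 14 members, where 49.9% of all genes were called (25.2% raised and 24.7% lowered). All of these members were lowered. The 13 of 39 are near the share of all genes lowered in the main fit (33.4%). Over the 13 other ways of fitting each member, 10 of the 25 kept their call in every one, namely *Actn3*, *Ldb3*, *Myh2*, *Myh4*, *Myl2*, *Ryr1*, *Tcap*, *Tnni2*, *Tpm1* and *Tpm2*. A further 5 lost it with DESeq2 alone (*Actc1*, *Cacna1s*, *Myh1*, *Myh7* and *Tnnt1*). The other 10 lost it elsewhere as well or instead. They were *Myl4* (8 of 13), *Myom2* (7), *Casq1* (6), *Atp2a1* (4), *Tnni1* (4), *Ckm* (3), *Mybpc1* (3), *Acta1* (2), *Mybpc2* (1) and *Myom1* (1). In libraries of whole cultures, fewer cells of a type and less RNA per cell cannot be told apart.

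Other cell markers moved in the same comparison. All 8 myotube markers were lowered by butyrate, from a sum of 7163 to 8153 CPM to 3713 to 5179 CPM (median log2 fold change -0.74). All 5 myoblast markers were lowered as well, from 732 to 771 CPM to 204 to 235 CPM. Fibroblast markers summed to 1655 to 2466 CPM under butyrate, with 2 of 7 raised and 0 lowered. Smooth muscle and myofibroblast markers, another contractile class, went from a sum of 905 to 979 CPM to 478 to 661 CPM, with 2 of 6 lowered and 1 raised. All 8 macrophage markers were lowered, to 18.1 to 90.8 CPM, and 4 of 5 proliferation markers. All 6 hepatocyte markers were raised. Of 5 endothelial markers 1 was raised and 1 lowered (8.94 to 16.0 CPM), and of 5 adipocyte markers 1 was raised (0.773 to 1.97 CPM). Without butyrate replicate 2, where hepatocyte marker RNA was most abundant, 26 members were called, and without replicate 3, which held the lowest values of many members, 17. All of these were lowered. The part of these changes in the fall of the sarcomere genes was not tested. The plot of log2 fold changes sets the responses to both compounds side by side. They share the same 3 control libraries, so their common part is not independent.

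**Figure D2:**
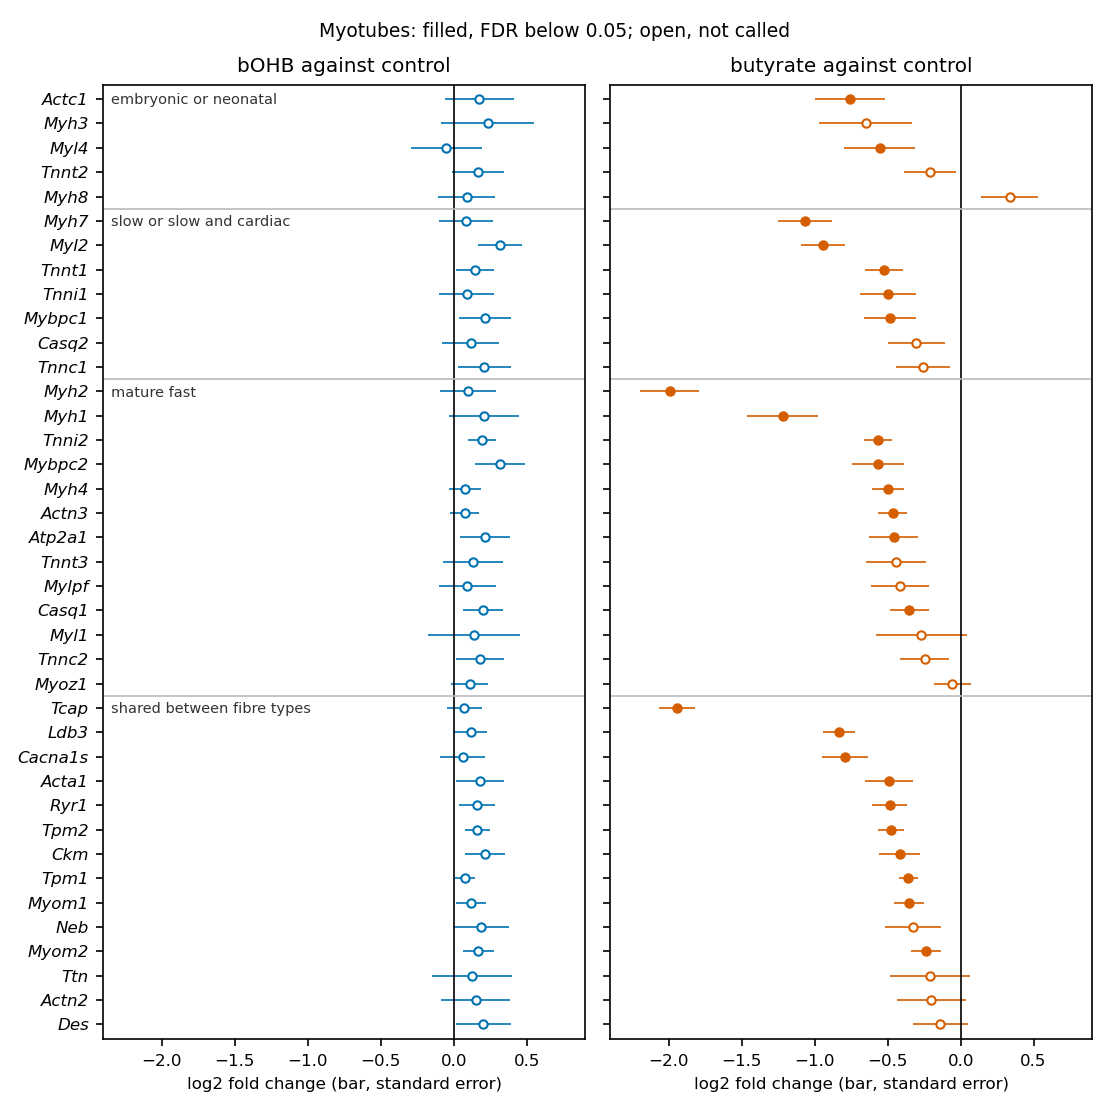
Log2 fold change of the 39 tested genes in myotubes under βOHB (left) and butyrate (right) against the same controls, by isoform class; points are fitted values, bars are standard errors, and filled points passed an FDR of 0.05. No point is filled under βOHB, and under butyrate the 25 filled points all lie below 0, with *Myh2* and *Tcap* lowest.

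The myosin heavy chains, the motors of the thick filament, responded unequally to butyrate: 4 of 6 were lowered. For this and the following counts by role, the share lowered over all genes tested was 33.4%. *Myh2*, the chain of fast oxidative type IIA fibres, had the largest fall in the whole list, within its error of that of *Tcap* (-1.94 ± 0.12). It was at 146, 212 and 214 CPM in the controls, at 237, 187 and 188 CPM under βOHB and at 63.5, 57.4 and 22.3 CPM under butyrate. All butyrate libraries were below the others, and the level fell to 25.1% of control (log2 fold change -1.99 ± 0.20, adjusted p = 7.52e-10). *Myh1*, the chain of type IIX fibres, was at 2446, 2885 and 2797 CPM in the controls, 3181, 3309 and 2889 CPM under βOHB and 1222, 1226 and 1040 CPM under butyrate. This was a fall to 42.9% (-1.22 ± 0.24, adjusted p = 6.56e-05). *Myh4*, the chain of type IIB fibres, had 148, 167 and 162 CPM in controls, 182, 151 and 171 CPM under βOHB and 109, 107 and 122 CPM under butyrate, a smaller fall with no overlap (-0.50 ± 0.11, adjusted p = 0.000347).

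*Myh7*, the slow chain that is also the β-myosin of the heart, went from 1089, 1399 and 1366 CPM in the controls, and 1392, 1329 and 1366 CPM under βOHB, to 653, 666 and 518 CPM under butyrate. It fell to 47.7% of control (-1.07 ± 0.19, adjusted p = 1.49e-05). The 2 developmental chains did not pass the test against control, in opposite directions. *Myh3*, the embryonic chain and the most abundant of the 6, was at 7863, 9899 and 9929 CPM in the controls, at 11650, 10016 and 10848 CPM under βOHB and at 6684, 6410 and 4555 CPM under butyrate. The butyrate libraries were all below the controls, with a log2 difference of -0.65 ± 0.32 (adjusted p = 0.0726). *Myh8*, the perinatal chain, was at 1682, 2041 and 2013 CPM in the controls, 2078, 1951 and 2068 CPM under βOHB and 2594, 2459 and 2190 CPM under butyrate. It was the only tested member whose butyrate libraries were all above the controls (0.34 ± 0.20, adjusted p = 0.134, 95% interval up to 0.74). In a model of the 9 myotube libraries alone both passed the test (*Myh3* -0.62, adjusted p = 0.00591; *Myh8* 0.36, adjusted p = 0.00742). The heavy chain genes are alike in sequence, and how the authors' quantification split reads between them is uncertain.

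5 of the 6 heavy chain genes are neighbours on the forward strand of chromosome 11, in the order *Myh3* (67078300 to 67102291), *Myh2* (67171027 to 67197517), *Myh1* (67200052 to 67224575), *Myh4* (67238029 to 67260446) and *Myh8* (67277124 to 67308634; GRCm38, GENCODE M21), while *Myh7* lies on chromosome 14 (54970684 to 54994626). The first and last gene of the row are the developmental pair. The 150 bases upstream of the RefSeq transcript starts (GRCm38.p6, 5′ to 3′) are shown for these neighbours because their responses differed. They cover chr11:67078150-67078299 for *Myh3*, chr11:67170877-67171026 for *Myh2*, chr11:67199952-67200101 for *Myh1*, chr11:67237662-67237811 for *Myh4* and chr11:67276974-67277123 for *Myh8*. Capitals mark matches to a TATA box (TATAAA), an E-box (CANNTG), a CArG box or a MEF2 site, searched on both strands.
Myh3: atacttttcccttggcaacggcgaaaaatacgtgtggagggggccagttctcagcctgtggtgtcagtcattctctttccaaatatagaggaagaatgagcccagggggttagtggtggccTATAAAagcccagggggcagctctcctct
Myh2: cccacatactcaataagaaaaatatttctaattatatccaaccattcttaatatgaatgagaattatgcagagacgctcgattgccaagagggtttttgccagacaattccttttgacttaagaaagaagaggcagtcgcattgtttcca
Myh1: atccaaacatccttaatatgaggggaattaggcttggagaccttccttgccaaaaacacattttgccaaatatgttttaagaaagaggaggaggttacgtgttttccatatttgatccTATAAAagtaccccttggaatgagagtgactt
Myh4: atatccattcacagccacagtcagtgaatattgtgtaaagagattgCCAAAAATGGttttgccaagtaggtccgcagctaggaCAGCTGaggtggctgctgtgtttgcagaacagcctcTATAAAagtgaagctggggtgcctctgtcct
Myh8: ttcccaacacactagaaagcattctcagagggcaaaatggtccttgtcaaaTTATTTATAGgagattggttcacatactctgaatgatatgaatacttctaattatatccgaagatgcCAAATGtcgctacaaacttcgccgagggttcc
*Myh3* held a TATAAA 29 bases before the start and *Myh1* held one 32 bases before it. *Myh4* held a TATAAA at 31 bases, an E-box at 67 and a CArG box at 104. *Myh8* held an E-box at 32 bases and a MEF2 match at 99, which overlaps a TATAAA on the reverse strand at 96. *Myh2* held no match in this window. These are matches of letters and no measurement of binding.

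The make-up of the myosin heavy chain pool is given here as each gene's share of the 6 per kilobase of transcript. *Myh3* made up 59.9% ± 0.732 of the pool in controls, 61.5% ± 1.71 under βOHB and 57.6% ± 2.84 under butyrate (SD, n = 3). *Myh8* made up 12.2% ± 0.189, 11.3% ± 0.347 and 23.5% ± 1.86 in the same order. *Myh1* went from 17.5% ± 0.676 in controls to 11.4% ± 0.789 under butyrate, *Myh7* from 8.08% ± 0.140 to 5.85% ± 0.201 and *Myh2* from 1.22% ± 0.114 to 0.449% ± 0.162. *Myh3* and *Myh8* together held 71.6%, 72.2% and 72.7% of the pool in the controls, 73.6%, 70.9% and 73.9% under βOHB and 82.1%, 81.3% and 80.0% under butyrate. The butyrate libraries did not overlap the controls, with a difference of 8.98 percentage points. The exact two-sided permutation test gave p = 0.1, the smallest that 3 libraries against 3 allow, and 0.333 after adjustment over 10 tests of shares. For βOHB the difference was 0.629 points (exact permutation p = 0.6). The plot of the make-up shows the wider *Myh8* band in the 3 butyrate libraries.

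**Figure D3:**
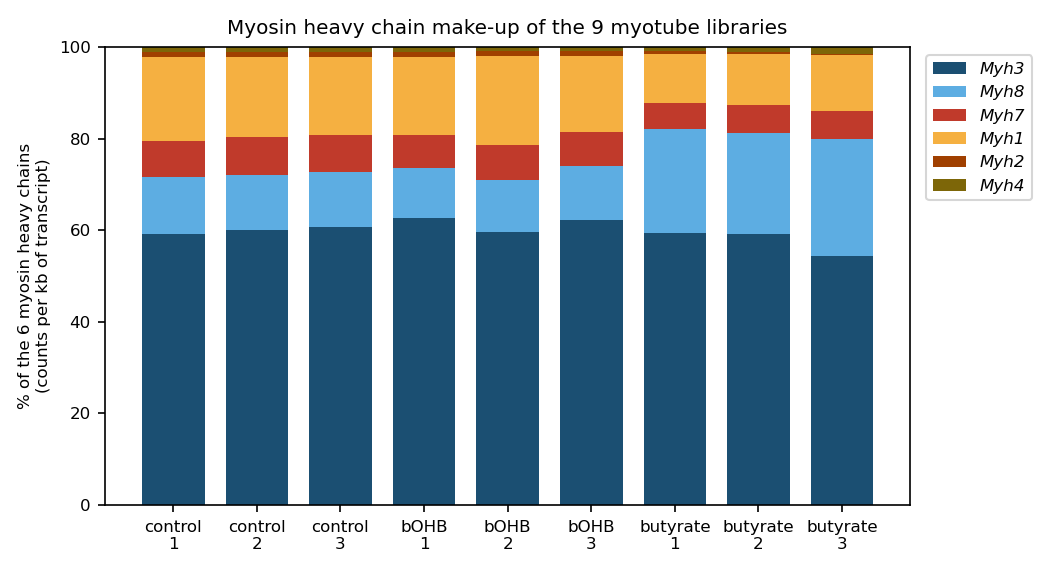
Share of each of the 6 myosin heavy chains in their sum, in percent of counts per kilobase of transcript, as 1 stacked bar for each of the 9 myotube libraries. *Myh8* holds 23.5% on average in the 3 butyrate libraries against 12.2% in the controls, and the bands of *Myh1* and *Myh7* are narrower.

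The myosin light chains stabilise the lever arm of the heavy chains. Of the 4 tested, 2 were lowered by butyrate. *Myl2* had 106, 123 and 68.6 CPM under butyrate, below every control and βOHB library given above, and fell to 52.0% of control (-0.94 ± 0.15, adjusted p = 4.91e-06). *Myl4*, the embryonic and atrial essential light chain, passed the test narrowly (-0.55 ± 0.24, adjusted p = 0.0459) and lost its call in 8 of 13 alternatives, with DESeq2 (adjusted p = 0.228), RLE scaling (0.0608) and library totals (0.138) and without each of 5 of the 6 libraries in turn (0.0601 to 0.113, all but butyrate replicate 1). It stood at 2206 to 2640 CPM under butyrate and 3330 to 3736 CPM in the controls. The fast essential chain *Myl1* was at 4346, 5432 and 5084 CPM in the controls, 5584, 5563 and 5209 CPM under βOHB and 4315, 4401 and 3620 CPM under butyrate. Its ranges overlapped and it was not called (-0.27 ± 0.31, adjusted p = 0.461). The fast regulatory chain *Mylpf* was not called either (-0.42, adjusted p = 0.0635).

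Both sarcomeric actins, the rods of the thin filament, were lowered by butyrate. *Acta1* was at 6987, 8738 and 7985 CPM in the controls, 9381, 8901 and 8574 CPM under βOHB and 6224, 6122 and 4512 CPM under butyrate, without overlap between butyrate and the rest (-0.49 ± 0.16, adjusted p = 0.00944). Its call was lost with library totals and without butyrate replicate 3. *Actc1* was at 2825, 3623 and 3338 CPM in the controls, 3841, 3522 and 3673 CPM under βOHB and 2125, 1892 and 1774 CPM under butyrate. It fell to 59.2% of control (-0.76 ± 0.24, adjusted p = 0.00622). Its share of the 2 actins, per kilobase, was 28.8% ± 0.356 in controls and 25.4% ± 2.30 under butyrate (exact permutation p = 0.1, adjusted 0.333). The coding sequences of the actins are close to each other, so the split of reads between them is uncertain.

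The troponins and tropomyosins switch the thin filament on and off with calcium, and 5 of 9 were lowered. *Tnni2* was at 228, 225 and 163 CPM under butyrate, below all controls (-0.57 ± 0.097, adjusted p = 7.79e-06). Tropomyosin genes *Tpm1* (-0.36 ± 0.065, adjusted p = 1.77e-05) and *Tpm2* (-0.48 ± 0.088, adjusted p = 2.33e-05), whose products lie along the actin filament, fell with small errors. The slow troponins *Tnnt1* (-0.52) and *Tnni1* (-0.50), which bind tropomyosin and inhibit the filament, completed the lowered group. *Tnnt2*, the cardiac and embryonic troponin T, had the value nearest 0 of the 9. It was at 1776, 2086 and 2168 CPM in the controls, 2250, 2197 and 2310 CPM under βOHB and 1930, 1789 and 1494 CPM under butyrate (-0.21, adjusted p = 0.307), with overlapping ranges. The fast troponin T *Tnnt3* (-0.44, adjusted p = 0.0592) and the calcium-binding subunits *Tnnc1* (-0.26, adjusted p = 0.215) and *Tnnc2* (-0.25, adjusted p = 0.193) were not called.

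Of the giant, M-band and myosin-binding proteins 4 of 6 were lowered. The largest response was that of *Mybpc2*, the fast isoform of the myosin-binding protein C of the thick filament. It was at 54.9, 61.7 and 72.4 CPM in the controls, 84.4, 77.5 and 73.6 CPM under βOHB and 45.1, 57.6 and 24.9 CPM under butyrate. A single butyrate library lay inside the control range, and the fold change was -0.56 ± 0.18 (adjusted p = 0.00654). Its slow counterpart *Mybpc1* fell to a like extent (-0.49, adjusted p = 0.0183), and the M-band cross-linkers *Myom1* (-0.35, adjusted p = 0.00296) and *Myom2* (-0.24, adjusted p = 0.0467) fell less, the latter without a call in 7 of 13 alternatives, among them DESeq2 (adjusted p = 0.0589), RLE scaling (0.0837), library totals (0.404) and the fits without control replicate 2 or 3 or butyrate replicate 3 (0.12 to 0.188). The molecular spring and the ruler of the sarcomere were not called. *Ttn* (titin) was at 3176, 3620 and 5020 CPM in the controls, 4811, 3633 and 4441 CPM under βOHB and 3645, 4177 and 2413 CPM under butyrate, with wide overlap (-0.21, adjusted p = 0.519). *Neb* (nebulin) had a log2 difference of -0.33 (adjusted p = 0.136).

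At the Z-disc, where thin filaments of neighbouring sarcomeres are anchored, 3 of 6 genes were lowered. *Tcap*, which encodes telethonin, the cap that joins titin ends at the Z-disc, was at 246, 308 and 269 CPM in the controls, 302, 283 and 281 CPM under βOHB and 74.4, 68.1 and 71.7 CPM under butyrate. The 3 butyrate libraries were close to each other and far below the rest, and the level fell to 26.0% of control (-1.94 ± 0.12, adjusted p = 2.69e-14). *Ldb3*, a PDZ and LIM domain protein of the Z-disc, fell to 56.1% (-0.83, adjusted p = 1.61e-07) and the fast α-actinin *Actn3* to 72.4% (-0.47, adjusted p = 0.000143). The other α-actinin, *Actn2* (-0.20, adjusted p = 0.463), and desmin, *Des*, the intermediate filament that ties Z-discs together (-0.14, adjusted p = 0.525), were not called. *Myoz1*, a calcineurin-binding protein of fast Z-discs, was at 23.2, 31.4 and 28.0 CPM in the controls, 34.7, 25.6 and 28.9 CPM under βOHB and 26.8, 26.3 and 26.3 CPM under butyrate. Its butyrate libraries lay inside the control range (-0.06, adjusted p = 0.714).

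Excitation-contraction coupling carries the membrane signal to the calcium store, and 4 of its 5 genes were lowered. *Cacna1s*, the voltage sensor of the transverse tubule, was at 617, 679 and 674 CPM in the controls, 709, 631 and 715 CPM under βOHB and 432, 405 and 301 CPM under butyrate, without overlap (-0.79 ± 0.16, adjusted p = 5.47e-05). Its partner *Ryr1*, the calcium release channel, fell by 0.49 on the log2 scale (adjusted p = 0.000781). The fast calcium pump *Atp2a1* fell by 0.46 (adjusted p = 0.0186) and the fast calcium store protein *Casq1* by 0.35 (adjusted p = 0.0228). The slow and cardiac store protein *Casq2* was at 1480, 1701 and 1687 CPM in the controls, 1756, 1725 and 1797 CPM under βOHB and 1441, 1365 and 1139 CPM under butyrate. Its groups did not overlap, but the difference was not called (-0.30, adjusted p = 0.177). *Ckm*, the muscle creatine kinase that regenerates ATP at the M-band, was at 584, 683 and 719 CPM in the controls, 824, 713 and 766 CPM under βOHB and 548, 547 and 392 CPM under butyrate, a fall to 74.8% (-0.42 ± 0.14, adjusted p = 0.01).

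Grouped by isoform class, no class stood out by its median, and over all genes tested 33.4% were lowered in this comparison. Of the embryonic or neonatal isoforms 2 of 5 were lowered (median log2 fold change -0.55), of the mature fast isoforms 8 of 13 (-0.46), of the slow or slow and cardiac isoforms 5 of 7 tested (-0.50) and of the genes shared between fibre types 10 of 14 (-0.39). The count of the embryonic or neonatal class is near the share over all genes, and 1 of its 2 calls is that of *Myl4*, lost in 8 of 13 alternatives. Within a class the values differed more than between classes. Fast isoforms ran from *Myh2* (-1.99) to *Myoz1* (-0.06), and the neonatal class from *Actc1* (-0.76) to *Myh8* (0.34). Shares within isoform pairs, per kilobase, shifted little. The slow *Tnni1* held 82.5% ± 1.79 of the skeletal troponins I in controls and 83.3% ± 0.962 under butyrate (exact permutation p = 0.7). *Tnnc1* held 59.0% ± 0.801 and 58.8% ± 0.494 of the troponins C (exact permutation p = 1). The fast *Tnnt3* held 41.6% ± 0.0902 of the troponins T in controls and 39.4% ± 0.334 under butyrate, with no overlap (exact permutation p = 0.1, adjusted 0.333). Under βOHB the shares of *Actc1*, *Tnni1*, *Tnnc1* and *Tnnt3* differed from control by -0.0638, -1.08, 0.452 and -0.452 percentage points (exact permutation p = 1, 0.4, 0.6 and 0.8).

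Butyrate and βOHB were given at the same dose for the same time, and 39 direct comparisons between them were adjusted together with all genes tested. Butyrate gave lower levels than βOHB in 30 of the 39 members and higher levels in 0, where 66% of all genes were called (33.1% higher and 32.9% lower). The median log2 difference was -0.58. In 36 members the butyrate libraries were all below the βOHB libraries and in 1 all above, where the shares over all genes were 34.3% and 32.5%. DESeq2 called 16. *Myh3*, not called against control, was lower under butyrate than under βOHB (-0.88 ± 0.32, adjusted p = 0.0164). The largest differences were again those of *Myh2* (-2.09) and *Tcap* (-2.02), followed by *Myh1* (-1.43), *Myl2* (-1.26) and *Myh7* (-1.15). For 9 members the difference was not called, and the 95% intervals were as follows. Those of *Actn2* (-0.84 to 0.13), *Myl1* (-1.05 to 0.23) and *Ttn* (-0.89 to 0.23) were wide and include falls to about the median of the list. Those of *Casq2* (-0.82 to -0.02), *Tnnt2* (-0.74 to -0.01), *Des* (-0.72 to 0.04) and *Myl4* (-1.0 to -0.00) lay almost wholly below 0. *Myoz1* had the narrowest (-0.43 to 0.09), and *Myh8* was the only one centred above 0 (-0.15 to 0.65). In the model of the 9 myotube libraries alone *Myh8* was called as higher under butyrate than under βOHB (0.30, adjusted p = 0.0181).

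A further 67 genes of the sarcomere, of excitation-contraction coupling, of the dystrophin complex and of the energy supply of contraction were listed beside the members, and 65 of them were tested. Under βOHB 0 of these were called (median log2 fold change 0.13), where 2.91% of all genes were. Butyrate lowered 50, raised 3 and left 12 not called, with a median of -0.60. Over all genes tested 33.4% were lowered and 33.1% raised. The lowest were *Synpo2l* (-2.93 ± 0.16, adjusted p = 1.09e-15), a Z-disc protein, and *Stac3* (-1.76, adjusted p = 4.36e-15), an adaptor of the voltage sensor. *Synpo2l* went from 906, 1079 and 1070 CPM in the controls to 149, 136 and 116 CPM. They were followed by the slow-type myosin *Myh7b* (-1.67) and the thin filament cap *Tmod4* (-1.57). The 3 raised genes were *Mylk2*, the skeletal myosin light chain kinase (1.01 ± 0.14, adjusted p = 5.38e-07), *Nebl*, which encodes nebulette (0.54, adjusted p = 0.0305), and *Xirp1*, an actin-binding protein of cell junctions (0.45, adjusted p = 0.00959). *Mylk2* was at 13.9, 14.0 and 13.2 CPM in the controls and 27.7, 27.9 and 27.2 CPM under butyrate, without overlap, whereas butyrate replicate 3 of *Xirp1* (511 CPM) lay within its controls (504 to 612 CPM). The called gene with the next highest value was *Sgcb* (-0.23, adjusted p = 0.0427), a sarcoglycan.

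Of the 40 members, 33 had a RefSeq promoter in the table used, and *Actn3*, *Myom2*, *Myoz1*, *Neb*, *Tcap*, *Tnni2* and *Tnnt3* did not. Within 150 bases upstream of the start, a CArG box, the site bound by serum response factor, was found in 6 of the 33 (18.2%) against 0.917% of all 32817 promoters. Of these 6 members, 5 were among the 21 lowered by butyrate in myotubes and 1 among the 12 that were not called or, as *Myl3*, not tested. A TATAAA was found in 7 members (21.2%) against 7.58% of all promoters, with 4 and 3 in the same order. The E-box, the site of MyoD and its relatives, was found in 18 members against 47.7% of all promoters, with 9 and 9. A MEF2 site was found in 2 members, neither of them lowered, against 1.67% of all promoters. These counts are descriptions without a test.

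The other cell types do not build sarcomeres, and most members were at low levels there. A mean of 1 CPM in the control or the butyrate group was reached by 10 of the 39 in adipocytes, 29 in macrophages and 19 in hepatocytes. *Tpm1* and *Tpm2* were well measured in all of them, and so were, at lower levels, *Acta1* in hepatocytes (17.1 to 19.2 CPM in controls), *Ldb3* in adipocytes (7.35 to 9.31 CPM) and *Myom1* in hepatocytes (6.56 to 9.41 CPM). All 39 tested members were higher in myotube controls than in the mean of the other controls, with a median log2 difference of 11.6, where 81% of all genes were called (42% higher). The myotube libraries themselves carried most members through the filter on low counts, so that this count had to be high. Outside the myotubes the 40 genes took 0.0278% to 0.0826% of all counts. *Tpm1* and *Tpm2*, whose products also serve the cytoskeleton of other cells, made up most of this. For the other 37 tested members, the level per 1000 CPM of the myotube control mean is a common scale. Its median over the 37 was 0.158 to 0.297 in adipocyte controls and 0.520 to 0.618 in hepatocyte controls. In macrophages it was 0.0597, 0.445 and 0.196 in the controls, 0.289 to 0.370 under βOHB and 0.416, 0.585 and 2.21 under butyrate. In butyrate replicate 3, 35 of 37 members lay within 3-fold of that median and 0 were at 0, so the muscle genes stood there in nearly the ratios they have in myotubes. Other libraries came near to this at a lower level. The number was 31 in macrophage control replicate 2 and in hepatocyte control replicates 1 and 3, with 2 or 3 members at 0. In macrophage control replicate 1 it was 14, and 11 of the 37 were at 0. Members that lay away from the common level included *Acta1*, *Actn3*, *Ldb3*, *Myom1* and *Myoz1*, which the plot of the other cell types marks. The 65 other contraction genes had medians of 0.247 to 0.785 in macrophage controls and 0.861, 1.90 and 3.38 under butyrate.

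**Figure D4:**
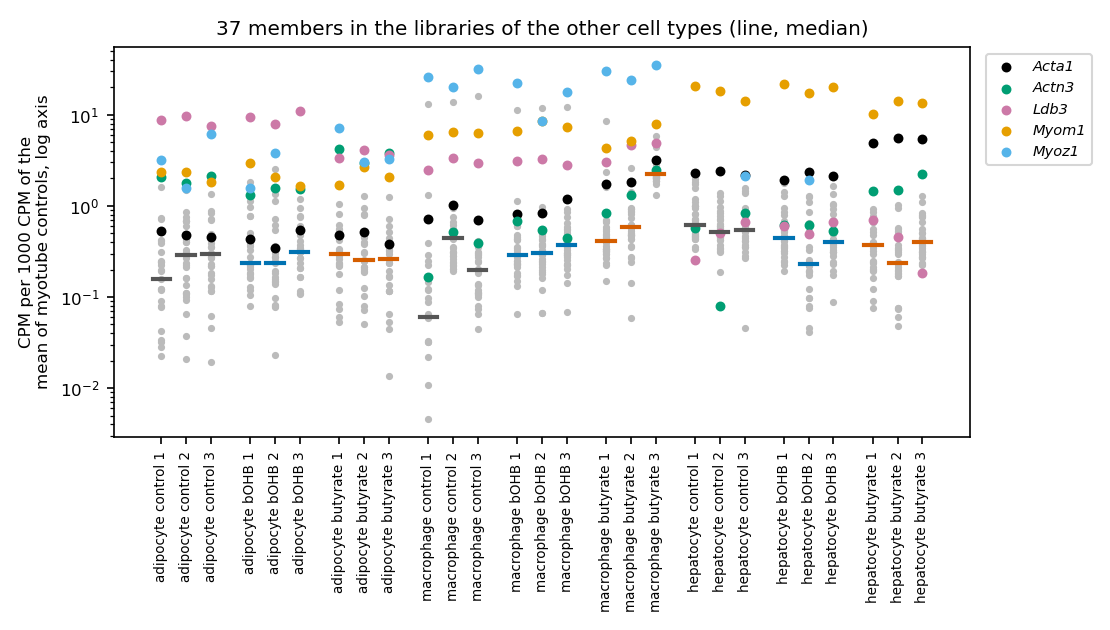
Level of 37 members (without *Tpm1* and *Tpm2*) in the 27 libraries of the other cell types, as CPM per 1000 CPM of the mean of the myotube controls, on a log axis; grey points are members, the line is the median of each library and values of 0 are not drawn. The line of macrophage butyrate replicate 3 (2.21) is the highest, and its points lie closest together.

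In adipocytes, macrophages and hepatocytes 0 members were called under βOHB, where 0.00652%, 0% and 0.00652% of all genes were called by edgeR's test. Limma-voom and DESeq2 called 0 members too, and 0, 1 and 0 members had an unadjusted p below 0.05. In adipocytes butyrate lowered 3 members and raised 1, where 61% of all genes were called (30.7% raised and 30.3% lowered). *Tpm1* went from 259, 247 and 251 CPM to 190, 168 and 183 CPM (-0.48, adjusted p = 2.06e-07), and *Tpm2* from 83.5, 78.6 and 81.2 CPM to 68.3, 57.5 and 64.6 CPM (-0.35, adjusted p = 0.00123). Both fell without overlap. *Ldb3* fell from 8.53, 9.31 and 7.35 CPM to 3.30, 4.04 and 3.54 CPM (-1.2, adjusted p = 6.91e-07). *Actn3* rose from 1.60, 1.38 and 1.65 CPM to 3.25, 2.27 and 2.96 CPM (0.86, adjusted p = 0.00137).

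In macrophages butyrate raised 29 members and lowered 2, where 65% of all genes were called (31.9% raised and 33.2% lowered). Without butyrate replicate 3, it raised 20 and lowered 2. Of the 31 called, 27 reached a mean of 1 CPM in a group, and *Casq1*, *Ckm*, *Myom2* and *Tcap* did not. Of these 27, 20 were below 1 CPM in the controls and were counted for their mean under butyrate, where they are high, so their count is no support for a response. Myotube markers moved with them, from a sum of 0.593 to 2.72 CPM to 2.91, 4.56 and 17.8 CPM in butyrate replicates 1 to 3. Whether muscle RNA from outside the macrophages had a part in these rises was not tested. *Acta1* rose from 5.72, 8.01 and 5.58 CPM to 13.8, 14.3 and 25.1 CPM (1.47, adjusted p = 8.95e-08), and by 1.15 without replicate 3 (adjusted p = 1.48e-06). *Ryr1* rose from 0.127, 0.554 and 0.216 CPM to 2.52, 2.77 and 4.73 CPM (3.52, adjusted p = 6.2e-10), and by 3.21 without replicate 3. For both genes every butyrate library was above every control. *Actn3* rose from 0.127, 0.403 and 0.303 CPM to 0.652, 1.01 and 1.90 CPM (2.11, or 1.64 without replicate 3). *Ryr1* and *Actn3* are among the 20 members counted for their mean under butyrate, so their tests are no support for a response.

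The other members that rose in macrophages and reached 1 CPM were *Actc1*, *Actn2*, *Atp2a1*, *Casq2*, *Des*, *Ldb3*, *Mybpc1*, *Myh1*, *Myh3*, *Myh7*, *Myh8*, *Myl1*, *Myl4*, *Mylpf*, *Neb*, *Tnnc1*, *Tnnc2*, *Tnni1*, *Tnnt1*, *Tnnt2*, *Tnnt3* and *Ttn*. Their highest value was in replicate 3, as for *Myh3*, which was at 0.0424 to 2.17 CPM in the controls and 2.91 to 16.1 CPM under butyrate. Of these, *Actn2*, *Ldb3*, *Mybpc1*, *Myh7*, *Tnnc1* and *Tnnt1* were not called without replicate 3. *Tnni2* went the other way, from 3.94, 4.18 and 4.93 CPM to 2.61, 1.60 and 1.78 CPM (-1.13, adjusted p = 1.15e-05, and -1.04 without replicate 3), and *Tpm2* fell from 110, 105 and 104 CPM to 79.3, 92.1 and 100 CPM (-0.23, adjusted p = 0.0243, and -0.29 without replicate 3). *Tpm1* was at 401, 408 and 404 CPM and 388, 421 and 420 CPM, with overlap (0.02, adjusted p = 0.837).

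In hepatocytes butyrate lowered 6 members and raised 2, where 63.5% of all genes were called (31% raised and 32.4% lowered). *Acta1* rose from 18.0, 19.2 and 17.1 CPM to 38.6, 43.6 and 42.9 CPM (1.2, adjusted p = 8.1e-07), more than the spread of either group. *Actn3* rose from 0.439, 0.0615 and 0.650 CPM to 1.11, 1.14 and 1.74 CPM (1.75, adjusted p = 0.000383), and reached a mean of 1 CPM through the butyrate group alone. *Tpm1* fell from 696, 607 and 687 CPM to 391, 416 and 451 CPM (-0.66, adjusted p = 3.1e-10), while *Tpm2* was at 105, 106 and 110 CPM and 93.2, 91.5 and 97.3 CPM and was not called (-0.19, adjusted p = 0.074). *Myom1* fell from 9.41, 8.36 and 6.56 CPM to 4.66, 6.49 and 6.12 CPM (-0.49, adjusted p = 0.0125). At lower levels, *Actc1* (3.69 to 4.49 CPM in controls, 1.70 to 2.52 CPM under butyrate), *Des* (2.58 to 3.51 and 1.19 to 1.80 CPM) and *Tnnt2* (1.78 to 2.20 and 0.424 to 0.942 CPM) fell without overlap, and *Casq1*, below 1 CPM in both groups, was also lowered. The median of the 37 members per 1000 CPM of myotubes was 0.233 to 0.405 under butyrate and 0.228 to 0.439 under βOHB, and both were below the control libraries. Myotube markers summed to 5.72 to 7.09 CPM in the hepatocyte controls, 4.21 to 5.05 CPM under βOHB and 2.73 to 4.14 CPM under butyrate. Whether muscle RNA from outside the hepatocytes had a part in the falls of the members was not tested.

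**Figure D5:**
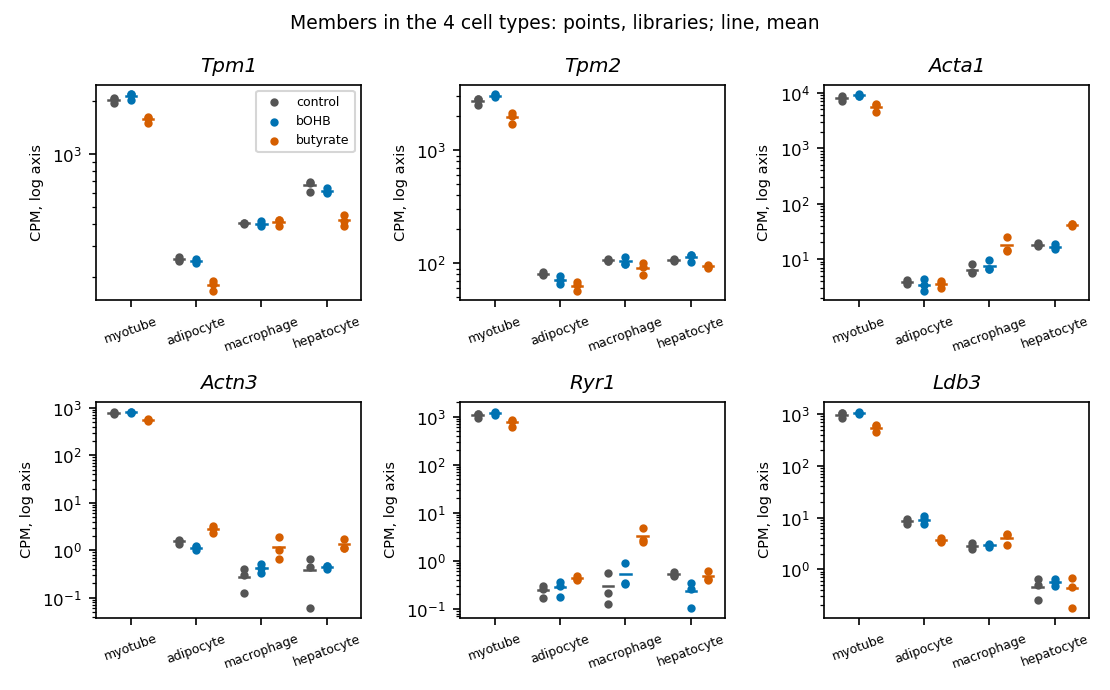
Level of 6 members in the 4 cell types under control, βOHB and butyrate, in CPM on log axes of different range; points are libraries and lines are means. *Acta1* lies lower under butyrate in myotubes and higher in macrophages and hepatocytes, and *Tpm1* lies lower in all but macrophages.

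Whether a member responded differently to butyrate in myotubes and in another cell type was tested as the difference of the 2 responses, for members with at least 1 CPM in the other cell type. The response differed for 1 of 10 such members between myotubes and adipocytes, for 27 of 29 between myotubes and macrophages and for 6 of 19 between myotubes and hepatocytes, where 36.8%, 43.5% and 48.4% of all genes differed. Against macrophages all but *Tnni2* had the lower response in myotubes, as did 22% of all genes, and against hepatocytes 4 of the 6 had the higher one, as did 25.8% of all genes. Most of the 29 reached 1 CPM in macrophages under butyrate only, so that the count against macrophages leaned to the genes that rose there. Without macrophage butyrate replicate 3, the count against macrophages was 23. *Acta1* had a response lower by 1.96 on the log2 scale in myotubes than in macrophages and by 1.69 than in hepatocytes. The fall of *Acta1* in myotubes lost its call in 2 of 13 alternatives. The 150 bases upstream of its RefSeq start (chr8:123894776-123894925, reverse strand, GRCm38.p6) are shown because this gene was called in opposite directions.
Acta1: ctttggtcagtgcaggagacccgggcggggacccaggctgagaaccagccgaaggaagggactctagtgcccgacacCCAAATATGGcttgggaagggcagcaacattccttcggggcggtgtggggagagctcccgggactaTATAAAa
The capitals mark a CArG box 73 bases before the start and a TATAAA 7 bases before it.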

How the data were processed

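Primary adipocytes, macrophages, myotubes and hepatocytes were profiled by RNA sequencing of total RNA in 36 libraries. Estimated counts per gene were deposited by the authors, who quantified reads with Salmon 1.2.1 against GENCODE M25 transcripts of GRCm38.p6 and summed them to genes with tximport, 1 table for all libraries. Such counts divide reads shared by similar genes by model.

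The estimated counts were rounded and scaled by TMM. Testing was limited to 15340 genes that exceeded 1 CPM in 6 or more libraries. EdgeR 4.0.16 (R 4.3.3) was used with its quasi-likelihood test, in 1 model with a mean for each of the 12 groups. All 36 libraries shared 1 estimate of the spread per gene. Genes were called at a Benjamini-Hochberg FDR below 0.05. Totals were 18366289 to 23221473 per library, and the biological coefficient of variation was 0.111 in myotubes. Levels per kilobase used the longest coding transcript of GENCODE M21. The symbols came from the same annotation, in which 54094 of the 54347 IDs were found. Shares of isoforms were compared by exact two-sided permutation tests.

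Alternatives were DESeq2 1.42.0, limma-voom 3.58.1, RLE factors, scaling by totals, testing every gene with a count, P below 0.001, only the libraries compared, a replicate block and leaving out each library. On simulated counts for the comparison of butyrate with control in myotubes (15340 genes), edgeR recovered 88.5% of 200 changed genes, and 77.6% of those changed by 1.5-fold. It made 14 false calls. In the simulation no more than these 200 genes changed, whereas 66.5% of genes were called in the data, so the rates may not carry over. No pair of replicates was a repeat of 1 library (chi-square per gene 2.676 to 41.72). The members, lists and tests were chosen with earlier results of these data known. Per-library values are given for the heavy chains, for the 2 members of smallest P under βOHB, since none was called, and for the highest and lowest response to butyrate in each role. In other cell types, members above 10 CPM in controls or called with at least 1 CPM are named, and so are the 4 highest and 4 lowest called genes of the other contraction genes.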

Additional observations from a re-analysis of the deposited data

Results flagged for a closer look

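Responses to butyrate that differed between myotubes and another cell type are listed here with the log2 response of myotubes minus that of the other type, as tested by edgeR's interaction contrast at an FDR of 0.05, over members with a mean of at least 1 CPM in the control or butyrate group of the other type. Against adipocytes, 1 member differed. It was *Actn3* (-1.33), lowered in myotubes and raised in adipocytes. Against macrophages, 27 members differed, of which 20, *Actn3* and *Ryr1* among them, were below 1 CPM in macrophage controls and entered through the butyrate group, where they are high. Their number is therefore no support for a difference, and whether muscle RNA from outside the macrophages had a part in it was not tested. Among those named were *Acta1* (-1.96), *Actn3* (-2.58) and *Ryr1* (-4.00), lowered in myotubes and raised in macrophages. Without macrophage butyrate replicate 3 these were -1.63, -2.08 and -3.67, all still called, and 23 members differed. For *Actn3* and *Ryr1* the kept call is no support either, because both entered through the butyrate group. *Tpm1* (-0.38, or -0.36 without that library) was lowered in myotubes and not called in macrophages. *Tnni2* (0.57) was lowered in both, further in macrophages, and without macrophage butyrate replicate 3 its difference of 0.50 was not called (adjusted p = 0.117). Against hepatocytes, 6 members differed. *Acta1* (-1.69) and *Actn3* (-2.21) were lowered in myotubes and raised in hepatocytes, where *Actn3* was below 1 CPM in controls and entered through butyrate alone, and *Tpm1* (0.30) was lowered further in hepatocytes. *Des* (1.01) and *Tnnt2* (1.38) were lowered in hepatocytes and not called in myotubes, and *Myh8* (1.45) was called in neither cell type alone. Whether muscle RNA from outside the hepatocytes had a part in these differences was not tested. Dixon's test of single outlying samples was not run on groups of 3 libraries.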

How the results depend on the processing

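The number of members called in myotubes under butyrate was 25. It was 37 with every gene above 0, 33 for limma-voom, 27 with the myotube libraries alone, 23 for RLE factors and 17 for library totals alone, each but RLE with 1 raised. Library totals shifted the median of all genes by 0.133. The count was 14 at P below 0.001 and 13 with DESeq2, and 17 to 27 when single libraries were left out (17 without butyrate replicate 3). For butyrate against βOHB the count of 30 became 38 with every gene above 0, 37 for limma-voom, 36 with the myotube libraries alone (1 raised in each of these 3), 29 for RLE factors, 22 for library totals, 16 with DESeq2 and 26 to 33 without single libraries. Under βOHB, testing every gene with a count above 0 called 1 member in myotubes, 1 in macrophages and 1 in hepatocytes, against 0. In macrophages under butyrate the count was 22 to 31 without single libraries. In hepatocytes under butyrate it was 3 at P below 0.001, 20 with every gene above 0, 18 with the hepatocyte libraries alone and 5 to 8 without single libraries (5 without control replicate 1 or butyrate replicate 1). The differing responses were 2 against adipocytes with every gene above 0 and 1 to 2 without single libraries (2 without myotube butyrate replicate 3). They were 23 to 28 against macrophages, and 2 against hepatocytes at P below 0.001 and 3 to 6 without single libraries (3 without hepatocyte control replicate 1 or butyrate replicate 1).

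Signs turned for values near 0. With library totals, the log2 difference of *Myoz1* under butyrate was 0.083, and 0.033 against βOHB. Without single libraries it ran from -0.16 to 0.049 (positive without control replicate 2), and that of *Ttn* from -0.38 to 0.0059 (positive without control replicate 3). The share differences, in percentage points, ran from -0.490 to 0.322 for *Actc1* under βOHB (positive without control replicate 3 or βOHB replicate 2), from -0.24 to 1.345 for *Tnni1* under butyrate (negative without control replicate 3), from -0.608 to 0.193 for *Tnnc1* under butyrate (positive without control replicate 1 or butyrate replicate 2) and from -0.925 to 0.200 for *Tnnt3* under βOHB (positive without βOHB replicate 3). The causes were not tested. Among all other values of single members, 896 kept their side of the threshold, 64 gained a call and 76 lost one.

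Replicate numbers are shared between groups. Deviations of same-numbered myotube libraries correlated from -0.264 to 0.273, and those of differently numbered ones from -0.381 to 0.355. Such correlations from 3 libraries a group cannot tell whether same-numbered samples share an animal or culture. With the replicate block, the counts in myotubes were 0 under βOHB, 29 under butyrate (1 raised) and 34 between the compounds. They were 4 in adipocytes, 31 in macrophages and 12 in hepatocytes under butyrate, and 1, 26 and 6 for the differing responses. The comparison of control groups was not run on the compared libraries alone. Levels below about 1 CPM rest on few reads, and 3 libraries a group limit the detection of small changes.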
